A study of Mus musculus with 54 samples.

Results

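Lyve1 and 7 genes often named beside it in tissue macrophages, Folr2, Mrc1, Cd163, Cbr2, Cd209f, Cd209g and Fcna, were followed through 54 single mouse lung cells. The 8 genes were taken by symbol from tables of 43280 symbols, and all 8 were listed. Per the labels, every cell is an interstitial macrophage from lung, that is, a macrophage of the tissue between the airspaces and not of the air sacs, and each was sequenced as a full-length cDNA library of its own. The labels name no strain, age, animal, treatment, sort gate or plate, so the 54 cells count as 1 sample, cells are not replicates, and no p-value is given. The title of the series speaks of distinct macrophage populations in separate niches, and the comparison here asks which of the 8 genes were found in the same cells and how they stood to H2-Ab1, a gene of MHC class II.

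A gene is called held by a cell where it reached 10 TPM, the authors' estimate of its share of the cell's transcripts corrected for length; levels are log2(TPM + 1). The cells were first split by the mean level of Prg4, Alox15 and Fn1, genes known from macrophages of the pleural and peritoneal cavities. Below 7 were 31 cells, called serous-low here, and at 7 or more were 23, called serous-high. The highest serous-low cells stood at 4.86 and 5.34, and the lowest serous-high cells at 7.31 (cell 31), 7.76 (cell 20) and 11.5, so cells 31 and 20 lay apart from the other 21. Over a list of 11 serous cavity genes that includes these 3, the mean level ran from 0.06 to 2.65 in serous-low cells (median 0.57) and from 3.39 to 9.82 in serous-high cells (median 8.34). Because the 3 genes are in the list, part of this gap was set by the split itself. Selp and Icam2, which the split did not use, were held by 22 serous-high cells each and by 0 and 2 serous-low cells. Of the others it did not use, F5 and Cd5l were held by 21 serous-high cells each and by 0 and 1 serous-low cells. Ltbp1 was held by 20 serous-high but also by 8 serous-low cells. Garnl3, F10 and Gata6 were narrower, with 15, 10 and 8 serous-high cells and 1, 1 and 0 serous-low cells.

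Macrophages that line vessels in many tissues carry LYVE1, a receptor for hyaluronan, the sugar polymer of the matrix, which is otherwise best known from lymphatic endothelium. The genes usually found with it code for uptake receptors and lectins: MRC1 (the mannose receptor, CD206) binds sugar-decorated proteins, CD163 takes up haemoglobin bound to haptoglobin, and FOLR2 is a folate receptor. MHC class II, in contrast, presents peptides to helper T cells and is commonly used to mark the other type of interstitial macrophage.

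Since all cells carry the same label, the macrophage identity and the absence of endothelium were checked first. C1qa, C1qb, C1qc and Csf1r, defining macrophage genes, were held by 28, 29, 28 and 29 of the 31 serous-low cells and by 23, 23, 23 and 20 of the 23 serous-high cells. Of the 6 lymphatic endothelium markers (Prox1, Pdpn, Flt4, Mmrn1, Reln and Ccl21a) none was held by any cell, and 5 were listed at 0 in every one of the 7 serous-low cells with Lyve1. At least 3 markers of another cell type were above 10 TPM in cell 31 and cell 40 (alveolar macrophage) and in cell 36 (monocyte). Genes above 0 numbered 1227 to 4946 per cell, with medians of 2626 in serous-low and 2889 in serous-high cells.

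Cd209f and Cd209g code for C-type lectins of the mouse CD209 (DC-SIGN) family and are neighbours on chromosome 8 with no annotated gene between them. Their promoter windows are shown for their likeness alone. Most of each window lies before the transcript start, so it does not show how far reads of the pair can be told apart. The windows run from 250 bases before to 50 after the transcript start, from RefSeq on build GRCm38.p6, at chr8:4105715-4106014 (minus strand) for Cd209f and chr8:4134486-4134785 (plus strand) for Cd209g. Capitals mark the longest run of bases the windows share, written 5′ to 3′ on the strand of each gene.
Cd209f: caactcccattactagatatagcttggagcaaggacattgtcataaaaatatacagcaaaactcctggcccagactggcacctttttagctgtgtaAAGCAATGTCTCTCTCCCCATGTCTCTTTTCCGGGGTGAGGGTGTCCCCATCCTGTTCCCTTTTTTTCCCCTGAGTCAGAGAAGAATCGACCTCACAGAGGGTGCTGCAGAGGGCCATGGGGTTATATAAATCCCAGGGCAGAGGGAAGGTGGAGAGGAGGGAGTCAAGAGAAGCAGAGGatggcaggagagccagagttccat
Cd209g: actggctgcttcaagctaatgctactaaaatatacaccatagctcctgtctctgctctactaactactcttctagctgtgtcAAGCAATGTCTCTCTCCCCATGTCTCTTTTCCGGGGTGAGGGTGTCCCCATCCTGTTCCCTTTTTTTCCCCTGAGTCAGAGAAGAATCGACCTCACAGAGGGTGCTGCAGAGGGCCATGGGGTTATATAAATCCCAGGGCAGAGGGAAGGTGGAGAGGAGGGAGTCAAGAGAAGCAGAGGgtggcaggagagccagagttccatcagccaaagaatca
The shared run was 180 bases long, from position 97 of the Cd209f window and position 83 of the Cd209g window. Laid side by side without gaps, 238 of 286 bases (83.2%) were the same. The likeness went on into the transcripts. Of the 2172 different stretches of 51 bases (the read length) in the annotated Cd209f transcripts, 640 (29.5%) also occurred in Cd209g transcripts, where they made up 16.4%. A read from those stretches cannot by itself be given to either gene, and whether its paired read could place it was not checked. The Cd209g values, and low values of both, are therefore uncertain.

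The windows of Mrc1 and Fcna are shown because these were the most widely held of the 8 genes in serous-low and in serous-high cells respectively. They lie at chr2:14229164-14229463 (plus strand) and chr2:25627925-25628224 (minus strand) of the same build. Capitals mark matches on either strand to GAGGAA, the core bound by the myeloid factor PU.1, and to TGCTGAC, a core bound by MAF factors; no match to one overlapped a match to the other.
Mrc1: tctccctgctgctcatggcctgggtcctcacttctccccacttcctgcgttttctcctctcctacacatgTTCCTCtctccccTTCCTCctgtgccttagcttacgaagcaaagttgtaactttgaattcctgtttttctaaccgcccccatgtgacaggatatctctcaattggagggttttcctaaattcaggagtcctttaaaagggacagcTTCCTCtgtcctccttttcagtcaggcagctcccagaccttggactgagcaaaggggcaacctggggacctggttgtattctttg
Fcna: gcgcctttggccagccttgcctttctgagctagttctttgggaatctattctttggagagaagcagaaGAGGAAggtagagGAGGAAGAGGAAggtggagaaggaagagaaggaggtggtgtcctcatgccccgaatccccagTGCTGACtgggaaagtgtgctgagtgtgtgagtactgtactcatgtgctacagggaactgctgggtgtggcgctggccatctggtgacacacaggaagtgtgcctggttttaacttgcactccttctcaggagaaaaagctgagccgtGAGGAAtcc
GAGGAA matched at 3 places in the Mrc1 window and at 4 in the Fcna window, and TGCTGAC at 1 place in the Fcna window. Of 32851 promoter windows of this length, 28.3% held GAGGAA at least once, 0.685% at 3 or more places and 0.125% at 4 or more, and 4.67% held TGCTGAC. Windows were listed for 7 of the 8 genes, 8 in all, of which 3 held GAGGAA and 2 held TGCTGAC. Besides Mrc1 and Fcna, GAGGAA was found in the window of Cbr2. A match is a description of the letters and does not show that a factor binds there.

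**Figure D1:**
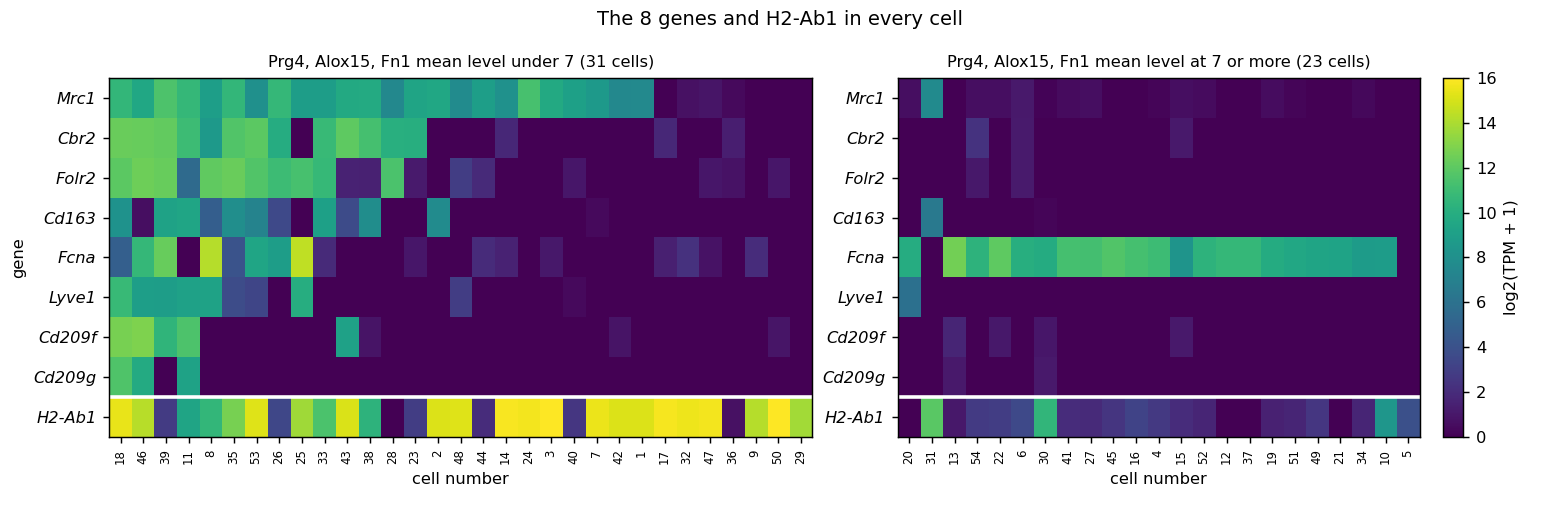
Level, as log2(TPM + 1), of the 8 genes and H2-Ab1 (rows) in each of the 54 cells (columns, numbered), with the 31 serous-low cells left and the 23 serous-high cells right, ordered by how many of the 8 genes each held. The genes thin out from Mrc1 down to Cd209g in the left panel, and in the right panel Fcna stands almost alone.

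In the serous-low cells Mrc1 was held most widely, by 24 of 31 cells (77.4%, 95% exact binomial interval 58.9 to 90.4%). Cbr2, a carbonyl reductase known from lung, followed with 13 cells (41.9%, 24.5 to 60.9%), then Folr2 and Cd163 with 11 each (35.5%, 19.2 to 54.6%), and Fcna, the secreted lectin ficolin A, with 8 (25.8%, 11.9 to 44.6%). Lyve1 was held by 7 (22.6%, 9.59 to 41.1%), Cd209f by 5 (16.1%, 5.45 to 33.7%) and Cd209g by 3 (9.68%, 2.04 to 25.8%). The interval of Mrc1 overlapped that of Cbr2 alone, narrowly, and those from Cbr2 to Cd209g overlapped one another, so the order among neighbours is not settled by these cells. The intervals cover counting error only.

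**Figure D2:**
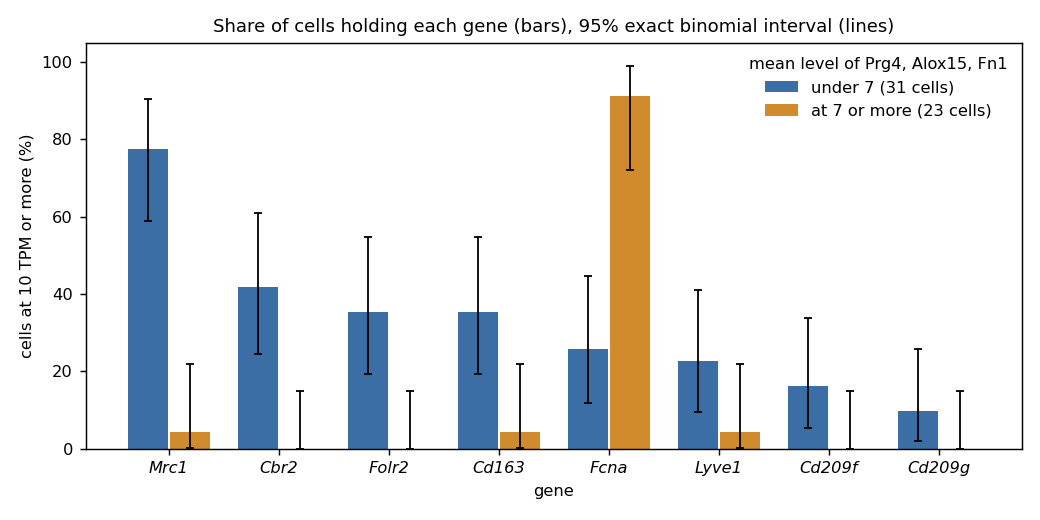
Share of cells holding each gene at 10 TPM or more (bars, %), with 95% exact binomial intervals (lines), in 31 serous-low and 23 serous-high cells. Mrc1 leads in serous-low cells at 77.4%, and Fcna in serous-high cells at 91.3%.

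Mrc1 was close to on or off. Its 24 serous-low holders had 174 to 2962 TPM with a median of 591, and the other 7 had at most 0.87 TPM. Cbr2 had as clear a gap, with 13 holders between 410 and 5143 TPM (median 2439) and no other serous-low cell over 2.43. Folr2 had 1661 TPM or more in 10 of its 11 holders (median 3170, highest 5688) and 45.01 TPM in cell 11, but another 9 serous-low cells had Folr2 above 0 and under 10 TPM, at up to 6.55. Mrc1 and Cbr2 thus parted the cells cleanly at the threshold, and Folr2 less so.

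Lyve1 itself was lower and more graded. It had 12.1 TPM in cell 35, 485 in cell 39, 510 in cell 46, 569 in cell 11, 602 in cell 8, 1014 in cell 25 and 1722 in cell 18. Just under the threshold were cell 53 with 9.28 TPM and cell 48 with 6.42 TPM, while the remaining serous-low cells had 0.35 TPM or less. Cd163 was lower still, with 10.5 to 667 TPM (median 228) in its 11 holders, of which cell 26 (10.5 TPM) and cell 43 (11.4 TPM) just passed.

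Cd209f and Fcna reached the highest single values of the 8 genes. Cd209f had 559 TPM in cell 43, 1388 in cell 39, 3002 in cell 11, 6819 in cell 18 and 7713 in cell 46. Cd209g was held by cells 11, 18 and 46, where it had 598, 3091 and 875 TPM, and Cd209f stood above it 5.02-fold, 2.21-fold and 8.82-fold there. It was listed at 0 in cells 39 and 43, although they held Cd209f. Fcna ranged most widely, from 16.01 TPM in cell 35 and 27.4 in cell 18 to 18662 in cell 8 and 22903 in cell 25. A further 9 serous-low cells had Fcna above 0 and at most 3.87 TPM.

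Every serous-low cell with any of the 8 genes held Mrc1. Mrc1 alone was held by 9 cells, 15 held at least 1 further gene, and 7 held none. All 7 Lyve1 cells and all 8 Fcna cells held Folr2, which was held by 11. All 5 Cd209f cells held Cbr2, and all 3 Cd209g cells held Cd209f, Cbr2, Folr2 and Lyve1.

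**Figure D3:**
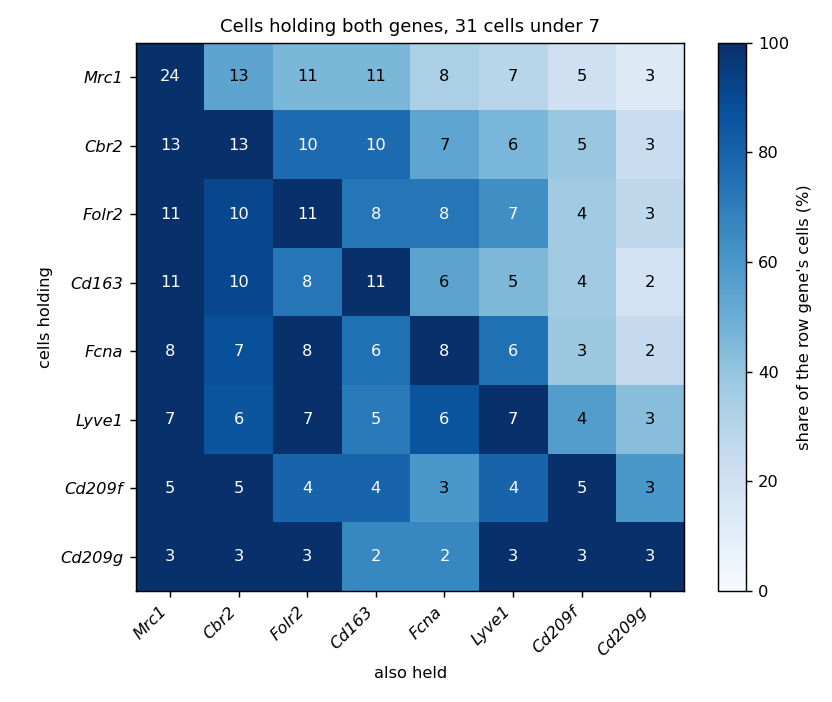
Number of serous-low cells holding both the row gene and the column gene (digits; the diagonal gives the cells holding each gene), shaded by the share of the row gene's cells (%). The Mrc1 column is at 100% in every row, as is Folr2 for Lyve1 and for Fcna.

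Of the 28 pairs, 14 were fully nested, so that every cell of the less widely held gene also held the other, and in 24 at most 1 cell broke the nesting. These counts were not set beside other gene pairs. Of the 14, 7 were with Mrc1, which most cells held, and 4 more were with Cd209g, which 3 cells held, so that nesting is easily met there. The closest pair was Folr2 and Fcna, held together by 8 cells, 72.7% of the Folr2 cells and 100% of the Fcna cells, with a Jaccard index (cells with both over cells with either) of 0.73. Folr2 and Cbr2 shared 10 cells, 90.9% of the Folr2 cells and 76.9% of the Cbr2 cells, and Cd163 and Cbr2 likewise shared 10 (index 0.71 for each pair). Cell 25 was the 1 Folr2 cell without Cbr2, and cell 2 the 1 Cd163 cell without it. The loosest ties were of Mrc1 with Cd209g (index 0.13), because Mrc1 was so much wider, and of Cd163 with Cd209g (2 cells, 0.17).

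Few cells carried the whole set. Only cell 18 held all 8 genes, cells 11, 39 and 46 held 7, cells 8 and 35 held 6, cells 26 and 53 held 5, and cells 25, 33 and 43 held 4. The median serous-low cell held 1 (quartiles 1 and 4.5). Cell 18 had 1724 genes above 0, among the lowest. Spearman's rho between the mean level of the 8 genes and the number of genes above 0 was 0.13 over the 31 cells. The 11 cells with 4 or more genes had a median of 2781 genes above 0, and the 16 with at most 1 had 2461.5. Counted at 10 TPM, the medians were 1614 and 1266.5 genes. How far detection bears on the number of the 8 genes held was not tested.

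In the serous-high cells Fcna was nearly the only one of the 8. It was held by 21 of 23 (91.3%, 72.0 to 98.9%), at 316 to 6266 TPM with a median of 1275. The exceptions were cells 5 and 31, where it was listed at 0. Folr2, Cbr2, Cd209f and Cd209g were held by 0 of 23 cells, a count under which a share of at most 13.04% is allowed by the limit of 3 counts, with an exact binomial upper bound of 14.8%. Mrc1 and Cd163 were held by cell 31 alone (205 and 89.2 TPM) and Lyve1 by cell 20 alone (58.3 TPM), the cells nearest the split. Cell 31 also had alveolar macrophage markers, whose part in its Mrc1 and Cd163 was not tested. Its lowest value above 0 was 9.5 TPM, and 1324 of its 1325 genes above 0 were held. In cell 31 the 10 TPM threshold thus meant little more than detection. In the 21 cells further above the split, Fcna was the only one held. Mrc1 was above 0 but under 10 TPM in 13 serous-high cells.

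Mrc1 had a mean level of 7.25 in serous-low and 0.61 in serous-high cells, a difference of 6.64. The difference was 4.61 for Cbr2, 4.27 for Folr2, 2.27 for Cd163, 1.92 for Lyve1, 1.71 for Cd209f and 0.89 for Cd209g. Fcna went the other way, at 2.99 against 9.43 (difference -6.44). Among 5593 genes held by at least 5 of the 54 cells, 7.97% were higher in serous-low cells by more than 1 and 30.2% were higher in serous-high cells. All 8 genes but Cd209g, held by 3 cells, were in that set. Folr2, Cbr2 and Cd209f entered it through serous-low cells alone, and Mrc1, Cd163 and Lyve1 had 1 serous-high holder each, so for these genes the direction was largely set by the filter.

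H2-Ab1, which codes for the I-A beta chain of MHC class II, was held by 24 serous-low cells (77.4%) and 5 serous-high cells (21.7%). In serous-low cells the 8 genes were mostly found together with it. It was also held by 6 of 7 Lyve1 cells, 8 of 11 Folr2 cells, 9 of 11 Cd163 cells, 9 of 13 Cbr2 cells and 18 of 24 Mrc1 cells. Cd209f cells held it in 4 of 5, Cd209g cells in 3 of 3 and Fcna cells in 6 of 8. Among serous-low cells without a given gene, the share with H2-Ab1 ran from 75% (Lyve1, Cd163 and Cd209g) to 85.7% (Mrc1), so its presence at 10 TPM differed little between cells with and without the 8 genes.

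The amount of H2-Ab1 differed more than its presence. Of the 16 serous-low cells holding at most 1 of the 8 genes, 13 had H2-Ab1, each at more than 10000 TPM, and the median of the 16 was 42895 TPM (0.65 to 74579). Of the 11 cells holding 4 or more, 9 had it, 5 of them over 10000 TPM, with a median of 6713 TPM (5.73 to 45979). The 4 cells with 2 or 3 genes had 0 to 36984 TPM (median 651). The ranges overlapped, and cell 18, with all 8 genes, had 45979 TPM of H2-Ab1. These bins were chosen after the values were seen.

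**Figure D4:**
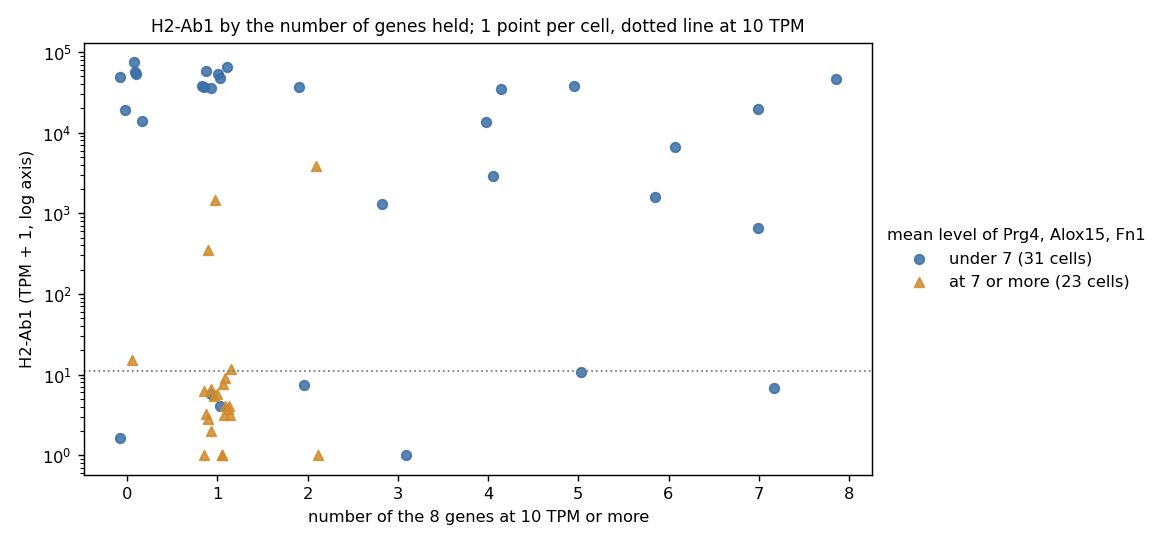
H2-Ab1 in each cell (TPM + 1, log axis) against how many of the 8 genes it held, for 31 serous-low cells (circles) and 23 serous-high cells (triangles), spread sideways for legibility. Among serous-low cells with at most 1 gene, 13 of 16 lie above 10000 TPM; those with 4 or more spread from 5.73 to 45979 TPM.

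Over the 31 serous-low cells Spearman's rho between the mean level of the 8 genes and H2-Ab1 was -0.33 (Pearson's r -0.15). Leaving out the 2 cells whose level lay farthest from the median gave -0.42, and rho was -0.48 over the 24 cells that held H2-Ab1, a choice made after the data were seen. It was -0.50 without cells 36 and 40, which carried markers of other cell types and had H2-Ab1 at 0.65 and 4.78 TPM. Against the mean of 8 MHC class II genes it was weaker, at -0.19. H2-Ab1 was also lower in cells with more genes above 0 (rho -0.47); with that number held fixed, rho with the 8 genes was -0.31. All these values are weak to moderate, describe the cells of 1 sample, and rest on TPM, in which all genes of a cell share a fixed total.

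Folr2 had the lowest rho with H2-Ab1, and Cbr2 cells the lowest median of it. The 11 Folr2 cells had a median of 2866 TPM of H2-Ab1 and the other 20 a median of 36838 TPM, with a rho of -0.48. The medians were 1578 and 37503 TPM for Cbr2 (rho -0.32), 2866 and 36346 for Cd163 (rho -0.23) and 6713 and 36346 for Lyve1 (rho -0.18). For Mrc1 they were 16769 and 49097 TPM (rho -0.26). By rho, Cd209f and Cd209g showed almost no relation (-0.01 and 0.00), and Fcna little (-0.07). Their medians still differed, at 10228 TPM in Fcna cells and 35998 TPM in the others. For Cd209f they were 19796 and 27621 TPM, and for Cd209g 19796 and 27018 TPM. Of 3074 genes other than H2-Ab1 that at least 5 serous-low cells held, 10.6% had a rho under -0.3 with H2-Ab1, as had 2 of the 7 members in that set, and 63.1% had a rho under 0, as had all 7. The median rho was -0.23 for the 7 and -0.07 over all.

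Other genes of MHC class II varied in how they stood to the 8 genes. The rank correlation with the mean level of the 8 was -0.38 for Cd74, the invariant chain, -0.35 for H2-Aa, -0.28 for H2-DMb1 and -0.21 for H2-DMb2. It was -0.16 for H2-Eb1 and 0.03 for H2-DMa, a chain of the molecule that loads peptides. Ciita, the class II transactivator, was held by 3 cells (rho -0.15). None of the 7 class II genes held by at least 5 serous-low cells was past -0.4, where 1.14% of 3068 genes lay. In the serous-high cells rho with H2-Ab1 was 0.12 (r 0.01) and had no stable sign: it was -0.18 with values under 10 TPM set to 0, 0.15 without Fcna in the level, and -0.20 for Fcna by itself. Of the 21 serous-high Fcna cells 3 held H2-Ab1.

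Outside the 8, the gene most like them in the serous-low cells was Sepp1 (Selenop), which codes for the secreted selenium carrier selenoprotein P. Its rho with their mean level was 0.77 over 31 cells. It had a median of 1999 TPM in the 16 cells with at most 1 of the 8 genes and of 10162 TPM (3064 to 13832) in the 11 cells with 4 or more, but the 4 cells with 2 or 3 stood higher still, at a median of 13689 TPM. Next came Ly6e (0.72), Trf (transferrin, 0.69), Gas6 (0.68), Ctsb (cathepsin B, 0.67), Pf4 (a platelet-type chemokine, 0.65), Pltp (phospholipid transfer protein, 0.64), Eps15 (0.63), Itm2b (0.61) and Klf4 (0.60). Most were also wide in serous-high cells. Sepp1, Trf, Ctsb and Itm2b were held by all 23, Ly6e and Pf4 by 22, Pltp by 17, Klf4 by 6 and Eps15 by 5. Trf (median 5299 against 1552 TPM), Pf4 (1966 against 413) and Ly6e (1453 against 830) were higher in serous-high than in serous-low cells. The medians of the others were lower there. Of 3068 genes ranked, 4.2% had a rho over 0.4, and their median was 0.03.

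Gas6, a bridging ligand that links dying cells to uptake receptors, was seldom found where few of the 8 genes were. It was held by 10 serous-low and 0 serous-high cells. Of the 11 cells with 4 or more of the 8 genes 7 held it, as did 2 of 4 with 2 or 3 and 1 of 16 with at most 1. Pltp was held by all 11, at 492 to 2267 TPM, by 3 of the 4 and by 4 of the 16. At the other end were Lsp1, a leukocyte actin-binding protein (rho -0.60), Rps14 (-0.59), Dpep2 (-0.55), Mdm2 (-0.52) and Rpl13a (-0.51). Lsp1 had a median of 2690 TPM in the 16 cells with at most 1 gene and of 3.46 TPM in the 11 with 4 or more.

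**Figure D5:**
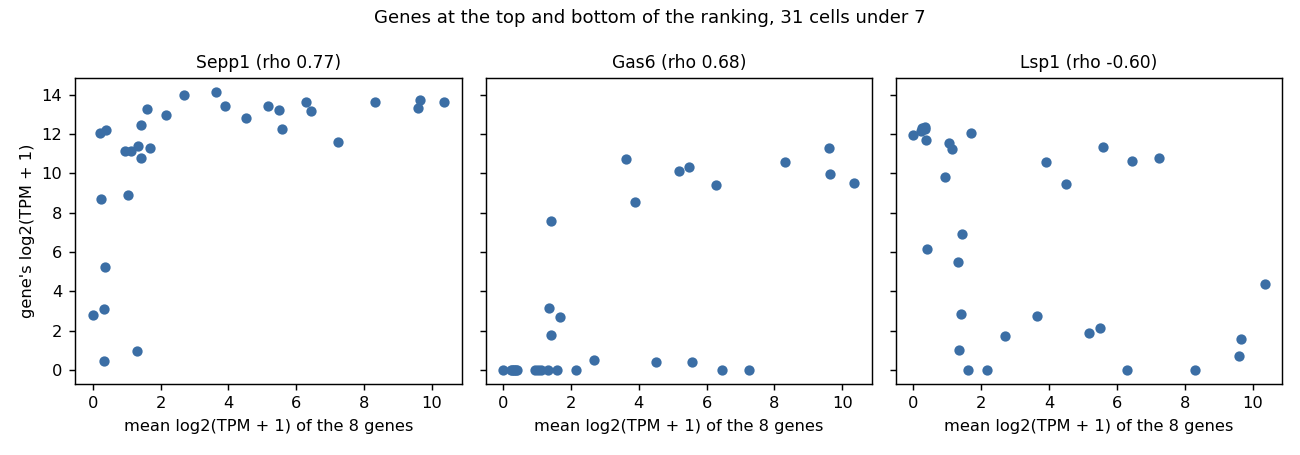
Level of Sepp1, Gas6 and Lsp1 (vertical axes, log2(TPM + 1)) against the mean level of the 8 genes (horizontal axes) in 31 serous-low cells, 1 point per cell, with Spearman's rho above each panel. Sepp1 rises with the 8 genes (0.77), Gas6 is absent from most cells at the left (0.68), and Lsp1 is lower at the right (-0.60).

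By shared cells, the gene nearest to Lyve1 was Calu, which codes for a calcium-binding protein of the secretory pathway, held by 6 of the 7 Lyve1 cells and by 7 serous-low cells in all (index 0.75). Klf2, a transcription factor gene, came after Fcna and Cbr2 for Folr2 (index 0.69) and after Folr2 for Fcna (0.73). Pltp was first for Cbr2 (0.72), with all 13 Cbr2 cells among its 18. For Cd163 the genes after Cbr2 were Ifi204 (0.60) and G6pdx (0.58). For Mrc1 they were Fau, Ctsh and Cybb (0.86, 0.85 and 0.85), each held by at least 26 of 31 cells. For Cd209f they were Dcxr (0.83), Chmp1a (0.67) and Stub1 (0.57).

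Dcxr, a xylulose reductase gene, is the annotated neighbour of Cbr2. It was held by 6 serous-low cells, the 5 with Cd209f and cell 35, and all 6 held Cbr2. Cells 4 and 16, serous-high, held Dcxr (281 and 416 TPM) with Cbr2 listed at 0. Of the 1323 stretches of 51 bases in Cbr2 transcripts 158 occur in Gm11771, which no cell held, and none of those in Lyve1, Folr2, Mrc1 or Fcna transcripts occurred in another gene's.

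Among 23 further genes named with this macrophage type, 22 were held by some serous-low cell, 16 by at least 5, and of those 9 had a rho over 0.4 with the 8 genes and none under -0.4, against 4.2% and 1.14% of all genes ranked. Their median rho was 0.46. Beside Sepp1, Gas6 and Pf4, the 9 were Clec10a (0.54), a galactose-binding lectin, Maf (0.54), a macrophage transcription factor, Nrp1 (0.53), F13a1 (0.47), a clotting factor subunit, Timd4 (0.47), a receptor for phosphatidylserine, and Stab1 (0.44), a scavenger receptor. Maf was held by 9 of the 11 cells with 4 or more of the 8 genes and by 2 of the 16 with at most 1, F13a1 by 9 and 4, and Timd4 by 7 and 1. Timd4, Sepp1 and Pf4 were not limited to these cells, since 20, 23 and 22 of the 23 serous-high cells held them. Mgl2, another galactose-type lectin gene, had a rho of 0.09. The remaining genes held by at least 5 were Ninj1 and Ccl24 (0.38 each), Igf1 (0.33), Wfdc17 (0.29), Ltc4s (0.28) and Ednrb (0.22). Ednrb and Wfdc17 were held by 23 serous-high cells, Ltc4s by 21, Ninj1 by 20, Ccl24 by 18 and Igf1 by 11. Nrp1 was held by 6 serous-high cells, Stab1, Clec10a, Maf and Mgl2 by 2 each, F13a1 by 1 and Gas6 by 0. The list was chosen with earlier results of these data known, so its direction is no independent evidence.

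The other CD209 genes were rare. Cd209a was held by serous-low cell 11, which held Cd209f, and by cell 48, which did not; it reached 6905 TPM in cell 48, which held Mrc1 alone of the 8 genes. Cd209b and Cd209d were each held by 1 serous-low cell, cell 46 (1096 and 512 TPM), the cell with the most Cd209f, and Cd209c by cell 48 (502 TPM). Cd209e was listed at 0 throughout.

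The pathways around single members were thinly covered in the serous-low cells. Of 9 hyaluronan genes, Cd44, the other main hyaluronan receptor, was held by 20 serous-low cells, and it ran against the 8 genes (rho -0.49). It was held by 14 of the 16 cells with at most 1 gene (median 410 TPM) and by 5 of the 11 with 4 or more (median 2.00 TPM). The hyaluronan synthases Has1, Has2 and Has3 and the clearance receptor Stab2 were listed at 0 in every cell. Of 7 haemoglobin and haem genes, Blvrb, a biliverdin reductase, had a rho of 0.45, Hmox1, haem oxygenase, of 0.27, Slc48a1, a haem transporter, of 0.12 and Lrp1, the haemopexin receptor, of -0.11, with a median of 0.19 over these 4. Slc40a1, the iron exporter, was held by 3 serous-low cells, all with 4 or more of the 8 genes. Of 9 folate genes, Ggh alone was held by at least 5 serous-low cells (rho 0.17), and the folate transporters Slc46a1 and Slc19a1 were listed at 0 throughout. Of 8 genes of the lectin pathway of complement, C3 and C4b alone were held, by 6 and 5 serous-low cells (rho 0.35 and 0.33), and the other ficolin Fcnb and the proteases Masp1 and Masp2 by none. Several of these genes were wider in the 23 serous-high cells. C4b and Lrp1 were held by 20 each there, Blvrb by 13, Ggh by 12, and C3 and Hp by 9 each. Cd44 was held by 19 serous-high cells, Hmox1 by 8, Slc48a1 by 6 and Slc40a1 by 0.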

How the data were processed

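Full-length cDNA of 54 single lung cells was sequenced as paired reads of 51 bases, per the labels' protocols. The deposited values are TPM, 1 table per cell; the submitters' processing notes name RSEM without a version, and the aligner, build and annotation are not given in the sources used here. Totals were at least 997509 TPM per cell. TPM keeps no depth, so depth is unknown and a gene listed at 0 is not shown to be absent. No pair of tables was identical.

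Members, lists, split and thresholds were chosen with earlier results of these data known. Holding was 10 TPM or more, levels log2(TPM + 1), which understates changes of low genes. Intervals of shares are 95% Clopper-Pearson (exact binomial) intervals; for a share of 0 the limit is 3 counts. No significance test was run. Besides the 8 members, H2-Ab1 and 6 lists of 64 genes, the genes named were the 10 highest and 5 lowest in rho with the mean level of the 8, among genes held by at least 5 serous-low cells (thresholds of 0.4, -0.4 and -0.3 for rho were set after the values were seen), and the 3 genes with the highest Jaccard index per member held by 5 or more cells, members included. Sepp1 (Selenop) was found under its older symbol. The ranking was run on simulated data in which planted genes followed the mean level of the 8 genes plus noise. That run checks the code and not the ranking found in these cells. The 51-base stretches came from GENCODE M21 transcripts, used for sequence likeness alone. Python 3.11.15, pandas 2.3.3, numpy 2.4.6, scipy 1.17.1 and matplotlib 3.10.9 were used.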

Additional observations from a re-analysis of the deposited data

How the results depend on the processing

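The median number of the 8 genes per serous-low cell was 1, but 3 above 0 and 3 at 1 TPM, and 2 with the split at 8, without cells under 2000 genes above 0 and without cells 31, 36 and 40 (markers of other types); in serous-high cells it was 1, and 2 above 0. The share of serous-low cells with Fcna was 25.8%, but 48.4% at 1 TPM and 54.8% above 0, and that with Folr2 35.5% and 64.5% above 0; for serous-high cells with Mrc1 it was 60.9% above 0. Pairs held together in at least 5 serous-low cells stayed between 14 and 19 of 28 under all 11 alternatives, and fully nested pairs fell from 14 to 9 above 0. Members higher by more than 1 stayed at 6 in serous-low and 1 in serous-high cells, against 7.97% and 30.2% of all genes. The 6 had at most 1 serous-high holder each, so their count could hardly move. The rank correlation with H2-Ab1 in serous-low cells stayed within 1.5 times under 16 of 18 alternatives and was -0.15 as Pearson's r and -0.19 against the mean of 8 MHC class II genes. In serous-high cells it was 0.12 and carried no stable sign, at -0.095 with a pseudocount of 10, -0.18 with values under 10 TPM set to 0, 0.40 without the 2 farthest cells, 0.011 as Pearson's r, 0.035 against the 8 class II genes, 0.0091 without cells under 2000 genes, 0.049 without cells carrying markers of other types and 0.049 without cells whose lowest value above 0 was over 1 TPM. The 10 highest genes of the ranking shared 9 or 10 with each alternative, and the 5 lowest shared 3 when genes had to be held by 10 cells and 2 when held by 1; where fewer or more genes were ranked, that choice itself changed the set; for the other shifts the cause was not tested. Leaving out the 2 cells between 7 and 8, using cells with H2-Ab1 alone and counting members in place of their level were chosen after seeing the data. No paired analysis was possible because the design has nothing to pair.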

Other observations

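Cells 8 and 25 carried Lyve1 in another company than the rest, a pattern picked out after the values were seen. They had the highest Fcna of all 54 cells (18662 and 22903 TPM) and were the only serous-low cells holding Vsig4, a complement receptor of resident macrophages (1639 and 3178 TPM). Both held Timd4 (666 and 272 TPM), whereas F13a1 was listed at 0 and Gas6 at 0 and 0.32 TPM, and Cbr2 was at 410 TPM in cell 8 and 0 in cell 25. Cells 39 and 46, with 7 of the 8 genes each, had Gas6 at 2463 and 1013 TPM, F13a1 at 1354 and 584 TPM and Vsig4 at 0, while their Timd4 (324 and 233 TPM) was near that of cell 25. Cell 18 had Gas6 at 738 TPM, F13a1 at 550 TPM, and Vsig4 and Timd4 at 0. Maf did not follow the pattern. It was at 59.7 and 218 TPM in cells 8 and 25, and at 25.8, 325 and 226 TPM in cells 18, 39 and 46.

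Cell 20, the serous-high cell with Lyve1, also held Vsig4, at 4589 TPM, and Timd4, at 500 TPM, and unlike cells 8 and 25 it held F13a1, at 596 TPM. It had Prg4 at 2433 TPM and Fn1 at 2252 TPM but Alox15 at 0.85 TPM and Icam2 at 0. Vsig4 was held by 5 cells in all, and 3 of them, cells 8, 20 and 25, were Lyve1 cells, of which there were 8. Cell 25 held Icam2 (1415 TPM), one of the serous genes not used in the split, while its split score was 0.23.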
